A study of Mus musculus with 9 samples.

Results

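The 10 genes described here are output and feedback genes of the fibroblast growth factor (FGF) and ERK pathway, with its ligand gene Fgf4. Their mRNA was followed through loss and return of a Polycomb protein in mouse embryonic stem cells. They are the ligand gene Fgf4, the MAP kinase phosphatase genes Dusp4 and Dusp6, the Sprouty genes Spry1, Spry2 and Spry4, the Spred genes Spred1 and Spred2, and the ETS factor genes Etv4 and Etv5. The set was defined by name as ERK output and feedback genes of the Dusp, Spry, Spred and Etv families, with Fgf4. It holds 10 of the 48440 genes in the count tables, and all 10 passed the filter on low counts, which left 20838 genes. The cells were J1 embryonic stem cells of the genotype Suz12-AID, in which a tag on Suz12 leads to its degradation when auxin is added. Suz12 belongs to the core of PRC2, the Polycomb complex that methylates histone H3 at repressed genes. The Mock group was labelled as the control, the Auxin group received 50 µM auxin for 96 h, and the Reintroduction group had the same 50 µM for 96 h and was then taken after a washout of 4.5 h, per the treatment protocol common to all samples. Each group had 3 libraries, described as biological replicates. The tag is present in all 3 groups, and the labels name neither a clone nor an untagged line. The growth protocol, given in the same words for all samples, lists serum, leukemia inhibitory factor and the 2i inhibitors. These are 1 µM PD0325901, which blocks the kinase MEK just above ERK, and 3 µM CHIR99021, which blocks GSK3. Every value below therefore comes from cells described as grown with a MEK inhibitor, and no group without it was analysed here.

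FGF4 is the main FGF made by mouse embryonic stem cells. It acts through FGF receptors, RAS, RAF and MEK on ERK, a signal that prepares these cells to leave the naive state and that the MEK inhibitor of 2i medium is meant to hold down. Active ERK raises transcription of Dusp, Spry, Spred and Etv genes, so their mRNA is widely read as ERK output. The proteins of the first 3 families act back on the pathway: DUSP6 and DUSP4 remove phosphate from ERK, Sprouty proteins dampen receptor signalling to RAS, and Spred proteins recruit neurofibromin, which switches RAS off. ETV4 and ETV5 are transcription factors of the PEA3 group that carry the signal to other genes.

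The count tables held between 44341283 (Reintroduction replicate 2) and 113931419 (Mock replicate 1) counts per library, where each mate of a read pair was counted. The lowest count of any member in any library was 130, for Dusp4 in Mock. Normalised counts are given as CPM, on library totals scaled by TMM factors. The degron acts on the protein, and Suz12 mRNA checks no label: it lay at 125.5 to 137.5 CPM in Mock, 121.9 to 152.2 in Auxin and 164 to 172.6 in Reintroduction. Libraries differed in how their values followed exon length. Per doubling of length, values changed by -0.25 to -0.17 log2 units in the Mock libraries, 0.15 in Auxin replicates 1 and 3, 0.01 in Auxin replicate 2, and 0.08 to 0.10 in Reintroduction. Auxin replicate 2 thus stood apart from its group, and results that rest on it are given with and without it. The share of mitochondrial counts was 3.79% to 4.0% in Mock and Auxin and 4.58% to 4.80% in Reintroduction, and its part in the results was not tested. All 8 embryonic stem cell markers were expressed, with group means from 54.0 CPM (Utf1 in Auxin) to 1155 (Nanog in Auxin).

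Per kilobase of exon, the members spanned a wide range of levels. In Mock the order was Etv5 (98.4 ± 2.35 CPM per kb), Fgf4 (63.9 ± 1.88), Spry2 (42.7 ± 2.40), Etv4 (35.6 ± 2.59), Dusp6 (20.8 ± 0.528), Spry4 (17.6 ± 0.716), Spred2 (9.25 ± 0.620), Spred1 (7.54 ± 0.117), Spry1 (3.11 ± 0.135) and Dusp4 (0.633 ± 0.0544; mean ± SD, n = 3 each). No neighbours in that order overlapped between their libraries. Among the protein-coding genes that passed the filter, Etv5 and Fgf4 stood at the 97.2 and 95.2 percentiles in Mock, and Dusp4 at the 27.9 percentile. In Auxin, Etv5 stayed on top with 85.4 ± 7.41 CPM per kb, but Etv4 dropped from rank 4 to rank 7 and Dusp4 left the last rank. The neighbours Fgf4 and Spry2, Spred1 and Spred2, Spred2 and Etv4, Etv4 and Spry4, and Dusp4 and Spry1 overlapped there. In Reintroduction only Spred1 (11.5 ± 0.607) and Spred2 (11.1 ± 0.316) overlapped as neighbours in the order.

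**Figure D1:**
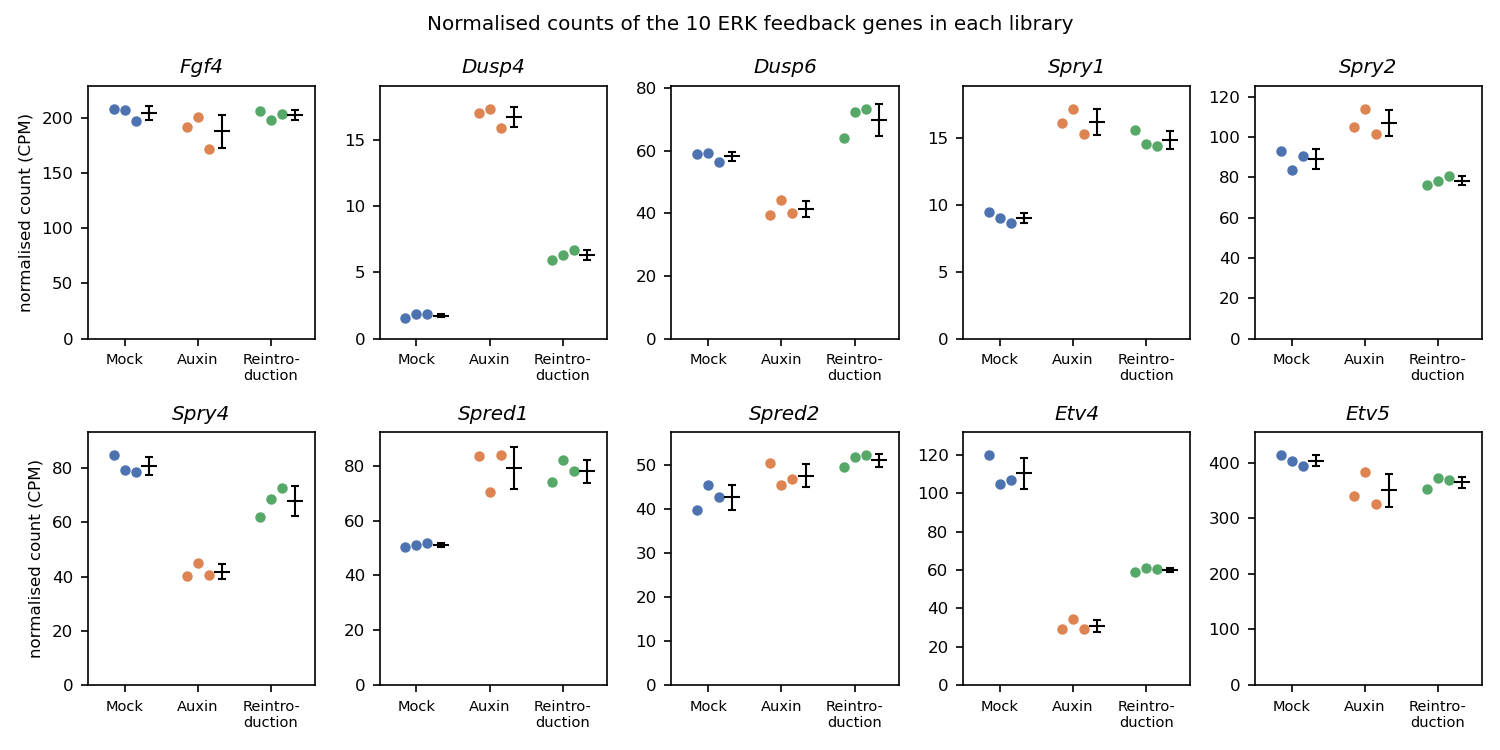
Normalised counts (CPM, y axis from 0, scaled per gene) of the 10 genes in each library of the 3 groups (x axis); coloured points are libraries and the black mark beside them is the mean with its SD (n = 3). Dusp4 has the widest gap as a fold, from 1.74 CPM in Mock to 16.7 in Auxin, Etv4 and Spry4 drop in Auxin and stand between the other groups after washout, and Fgf4 overlaps in all 3 groups.

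For 7 of the 10 genes (8 windows, since Etv5 has 2), a promoter window of 250 bases before to 50 after the start site was taken from RefSeq in GRCm38.p6, the assembly that mm10 names; windows of Dusp4, Spry4 and Etv4 were not used here. PRC2 is known to bind at stretches dense in CG, so CG pairs were counted in the 250 bases before the start. The 8 windows held between 12 and 31 CG pairs, against a median of 6 over 32851 windows of all genes. Of all windows, 33.5% held at least 12. The 3 windows below were taken from genes with different results in the main fit. Dusp6 was lower in Auxin and higher after washout, and Fgf4 did not pass the test in any comparison. Spred1 was above Mock in both Auxin and Reintroduction. Its difference in Reintroduction against Mock became 0.067 and lost its call with length and GC trends removed. No exon of the count tables lies in them. They are on the plus strand, printed 5′ to 3′, with each CG in capitals.
Dusp6, chr10:99262981-99263230, 16 CG pairs: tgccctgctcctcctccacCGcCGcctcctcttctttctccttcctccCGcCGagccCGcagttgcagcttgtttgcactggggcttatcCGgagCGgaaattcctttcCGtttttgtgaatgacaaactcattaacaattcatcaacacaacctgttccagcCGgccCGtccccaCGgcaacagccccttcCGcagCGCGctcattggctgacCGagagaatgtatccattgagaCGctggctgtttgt
Spred1, chr2:117120821-117121070, 31 CG pairs: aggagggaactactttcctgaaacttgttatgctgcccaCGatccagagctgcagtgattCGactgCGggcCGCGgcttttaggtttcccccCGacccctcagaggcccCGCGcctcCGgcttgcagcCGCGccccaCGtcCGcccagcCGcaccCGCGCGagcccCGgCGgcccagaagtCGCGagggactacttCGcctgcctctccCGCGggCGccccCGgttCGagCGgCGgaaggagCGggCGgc
Fgf4, chr7:144861136-144861385, 21 CG pairs: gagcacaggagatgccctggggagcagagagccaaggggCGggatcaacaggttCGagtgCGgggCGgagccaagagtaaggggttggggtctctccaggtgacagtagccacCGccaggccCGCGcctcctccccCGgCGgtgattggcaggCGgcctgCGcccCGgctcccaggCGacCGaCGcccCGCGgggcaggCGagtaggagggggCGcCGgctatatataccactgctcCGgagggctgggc
All 3 exceeded the median of all genes in CG pairs. That median was taken over windows of all genes, whether or not they passed the filter on low counts. Dusp4, Etv4 and Spry4, the members that changed most in Auxin against Mock, are not among the windows, so no link between CG pairs and change can be read here. A set of 4 motifs was searched on both strands of the whole windows: CCGGAAGT (ETS), TGACTCA (AP-1), TGACGTCA (CRE) and CGCCCCCGC (EGR1). None of the 8 windows held one, while 3.89%, 5.2%, 1.79% and 2.91% of all windows did, respectively. This says only that these letters are not in these windows.

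Auxin against Mock asks what changes with the auxin treatment that depletes Suz12. Without an untagged line, auxin itself and the loss of Suz12 cannot be told apart. The 10 genes split. Dusp4 rose by 9.67 times, Spry1 by 1.79, Spred1 by 1.55 and Spry2 by 1.2, while Etv4 was 3.59 times lower, Spry4 1.94, Dusp6 1.41 and Etv5 1.15 times lower. Spred2 passed the test narrowly, 1.11 times higher, and Fgf4 did not pass it. In all, 9 of 10 members were called at an adjusted p under 0.05 (edgeR's quasi-likelihood test, Benjamini-Hochberg over all genes), where 73.2% of all genes tested were called. Of the members, 5 were higher and 4 lower, beside 38.4% and 34.8% of all genes. Their median log2 fold change was 0.02 (0.05 over all genes) and their median absolute change 0.56 (0.67 over all genes). These values lie near those of all genes and are no result about the members as a set. An absolute log2 change of at least 1 was reached by 2 of 10, Dusp4 and Etv4, against 31.8% of all genes. The libraries of the 2 groups did not overlap for 8 of 10 members and for 74.3% of all genes. Scaling by total counts in place of TMM moved the median of all genes to 0.26 and the share of calls that were higher from 52.4% to 63.3%, so directions here are relative to TMM. Without Auxin replicate 2, all 10 members were called, and calls over all genes rose as well, from 15257 to 16236.

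Marker genes of stem cells and of other cell types moved in the same comparison, and their part in the members' changes was not tested. The 8 stem cell markers summed to 4847 to 5111 CPM in the Mock libraries, 5417 to 5917 in Auxin and 4237 to 4326 in Reintroduction. All 8 were called in Auxin against Mock: Sox2 (log2 fold change 1.002), Tdgf1, Esrrb, Nanog and Zfp42 were higher, and Dppa5a (-1.16), Utf1 (-1.03) and Pou5f1 (-0.53) were lower. The summed level of 6 primitive endoderm markers was 3.09 to 3.69 CPM in the Mock libraries, 13.5 to 14.4 in Auxin and 6.05 to 6.53 in Reintroduction. That of the 2 mesoderm markers T and Mixl1 was 11.5 to 12.6 CPM in Mock, 0.438 to 0.781 in Auxin and 1.78 to 2.11 in Reintroduction. The 4 trophoblast markers summed to 36.0 to 37.9, 24.9 to 27.4 and 66.6 to 69.9 CPM, nearly all of it Eomes, with Elf5 at 0 in 3 libraries and Cdx2 in 1. The 5 fibroblast markers summed to 17.8 to 20.0, 39.1 to 46.4 and 37.4 to 38.8 CPM, nearly all of it Thy1, while Col3a1 was at 0 in 6 libraries and Postn in 5. The 2 neural markers summed to at most 2.05 CPM in any library. In bulk RNA, fewer cells that express a gene and less RNA of it per cell cannot be told apart.

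Reintroduction against Auxin asks how the transcripts moved within the first hours after washout. The removal of auxin, the return of Suz12 and the washout step itself cannot be told apart in it. No group had a washout without auxin before it. Etv4 rose 1.96 times, Dusp6 1.69 and Spry4 1.62 times, and Dusp4 and Spry2 were 2.66 and 1.36 times lower. Fgf4, Spry1, Spred1, Spred2 and Etv5 did not pass the test. With 5 of 10 called, 3 higher and 2 lower, the members stood near the 50.9% of all genes tested (25.5% higher and 25.5% lower). Their median log2 fold change was 0.08 (0.003 over all genes) and their median absolute change 0.29 (0.35 over all genes). An absolute log2 change of at least 1 was reached by Dusp4 alone, 1 of 10, against 11% of all genes. The libraries did not overlap for these 5 members, beside 58.2% of all genes. The comparison shares its Auxin libraries with Auxin against Mock, so opposite directions in the 2 are not independent. Without Auxin replicate 2, Fgf4 and Etv5 were called as well, 7 of 10 in all. Calls over all genes rose too, from 10613 to 11581.

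Reintroduction against Mock asks what difference remained. Dusp4 was still 3.64 times higher, Spry1 1.65, Spred1 1.53, and Dusp6 and Spred2 each 1.2 times higher. Etv4 was 1.84 times lower, Spry4 1.19 and Spry2 1.14 times lower, and Fgf4 and Etv5 did not pass. Of the 10 members, 8 were called, 5 higher and 3 lower, beside 68.1% of all genes (34.7% higher and 33.4% lower). Their median absolute log2 change was 0.26, against 0.54 over all genes, and 1 of 10, Dusp4, changed by at least 1, against 22.4% of all genes. The libraries did not overlap for 9 of 10, beside 75.2% of all genes. The Reintroduction mean lay between those of Mock and Auxin for 7 members, above both for Dusp6 and Spred2, and below both for Spry2. The share of all genes in each position was not computed. Fgf4, Spry1, Spred1 and Etv5, among the 7, and Spred2 did not pass against Auxin, so their positions are not settled. For Spry2, the call against Mock was lost under some alternatives.

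**Figure D2:**
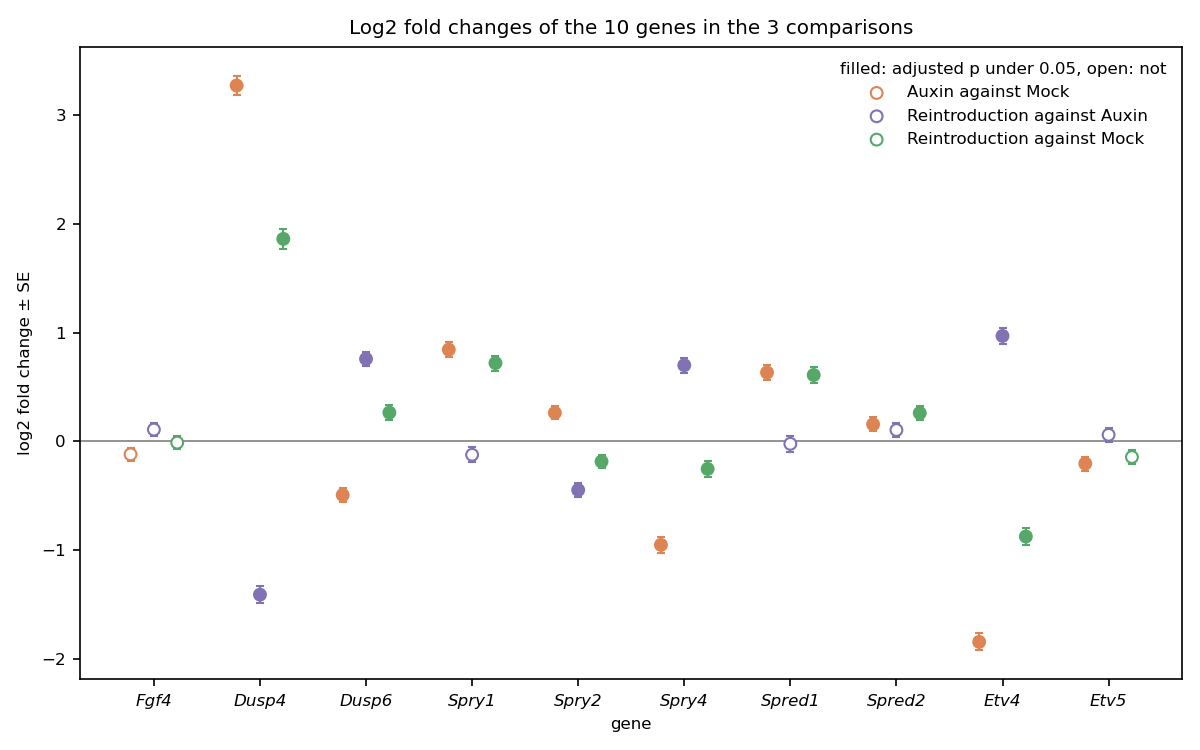
Log2 fold change with its SE (y axis) of each gene (x axis) in the 3 comparisons, from the fit over all genes; filled points passed an adjusted p of 0.05 and open points did not. Dusp4 (3.27) and Etv4 (-1.85) mark the range in Auxin against Mock, and the Fgf4 points lie between -0.12 and 0.11.

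Fgf4 (ENSMUSG00000050917.5; mm10 chr7:144847367-144865243, plus strand) encodes the ligand at the top of the loop. Its libraries held 208.0, 207.5 and 197.3 CPM in Mock, 192.0, 200.5 and 171.3 in Auxin, then 205.9, 197.9 and 203.8 in Reintroduction (replicates 1 to 3). The groups overlapped in every comparison, and Auxin replicate 3 was the lowest of the 9 libraries. The log2 fold change was -0.12 in Auxin against Mock (SE 0.062, edgeR adjusted p = 0.0999), 0.11 in Reintroduction against Auxin (SE 0.062, adjusted p = 0.169) and -0.01 in Reintroduction against Mock (SE 0.062, adjusted p = 0.874). The first of these became -0.18 and passed without Auxin replicate 2 (adjusted p = 6.32e-03), and was 0.09 with total counts. The second passed under 3 of 17 alternatives, among them leaving out that library (0.14, adjusted p = 0.0303), and the third was 0.10 and passed with length and GC trends removed (adjusted p = 0.0444). Genes with the most similar profile over the 9 libraries, by Euclidean distance of centred log2 CPM among 15180 genes of at least 1 CPM, were Gm6227, Paip2b and B4galt1 (distances 0.101 to 0.109, median over all genes 1.00). Among the members, Etv5 was nearest to Fgf4, at 0.212.

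Dusp4 (ENSMUSG00000031530.6; chr8:34807297-34819894, plus strand) encodes a nuclear phosphatase of ERK. It held 1.56, 1.82 and 1.82 CPM in Mock, 17.0, 17.3 and 15.9 in Auxin, then 5.91, 6.30 and 6.65 in Reintroduction. The 3 groups were fully separate, with Reintroduction between the others. The log2 fold change was 3.27 in Auxin against Mock (SE 0.090, adjusted p = 2.36e-10), -1.41 in Reintroduction against Auxin (SE 0.081, adjusted p = 1.7e-07) and 1.86 in Reintroduction against Mock (SE 0.091, adjusted p = 3.32e-08). Genes of like length and GC content had medians of -0.22, -0.02 and -0.29 in these comparisons (503 genes). No other member came near its profile: its nearest, Spry1, lay 2.97 away.

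Dusp6 (ENSMUSG00000019960.7; chr10:99263231-99267488, plus strand) encodes the cytoplasmic ERK phosphatase that is among the most used readouts of FGF signalling. Its libraries held 59.05, 59.15 and 56.5 CPM in Mock, 39.6, 44.35 and 40.1 in Auxin, then 64.1, 72.4 and 73.4 in Reintroduction. All Auxin libraries were below all Mock libraries, and all Reintroduction libraries above them. It fell by 0.49 on the log2 scale in Auxin against Mock (SE 0.067, adjusted p = 4.2e-05), rose by 0.76 after washout (SE 0.067, adjusted p = 4.19e-06) and stood 0.26 above Mock (SE 0.067, adjusted p = 4.38e-03). All 3 calls held under each of the 17 alternatives, the last between 0.21 and 0.40. The most similar profile of all genes was that of Mycn, a MYC family transcription factor gene (distance 0.130, median over all genes 1.33), with 129.7, 90.8 and 150.9 CPM in Mock, Auxin and Reintroduction. Cdr2 and Slc9a3r1 followed at 0.191 and 0.192.

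The 2 phosphatase genes moved in opposite directions in Auxin against Mock and after washout, comparisons that share the Auxin libraries, while both stood above Mock in Reintroduction. Per kilobase, Dusp6 exceeded Dusp4 by 37.0, 31.8 and 30.5 times in the Mock libraries, by 2.29, 2.51 and 2.48 times in Auxin, and by 10.6, 11.3 and 10.8 times in Reintroduction. Dusp4 made up 2.95% ± 0.287 of their sum in Mock, 29.2% ± 1.06 in Auxin and 8.41% ± 0.226 in Reintroduction (SD, n = 3). The sum itself was 21.5 ± 0.506 CPM per kb in Mock and 20.9 ± 1.12 in Auxin, which overlapped, and 27.3 ± 1.95 in Reintroduction, above both. With 3 libraries against 3 no exact permutation test can go below p = 0.1, so ratios and sums are given with their spread and no test.

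Spry1 (ENSMUSG00000037211.12; chr3:37639947-37644598, plus strand) was the lowest of the 3 Sprouty genes. It held 9.44, 8.99 and 8.66 CPM in Mock, 16.2, 17.2 and 15.3 in Auxin, then 15.7, 14.6 and 14.4 in Reintroduction. Mock lay below the other groups, which overlapped. The log2 fold change was 0.84 in Auxin against Mock (SE 0.069, adjusted p = 5.96e-07) and 0.72 in Reintroduction against Mock (SE 0.069, adjusted p = 4.1e-06); the change after washout was -0.12 (SE 0.068, adjusted p = 0.151), and passed under 2 of 17 alternatives, total counts (-0.20, adjusted p = 0.0179) and a filter of 1 CPM (-0.17, adjusted p = 0.0274). Spry1 shares exon sequence with Gm42922 on the opposite strand, and counting used no strand, but Gm42922 held at most 12 counts in any library.

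Spry2 (ENSMUSG00000022114.4; chr14:105891949-105896819, minus strand) was the most abundant Sprouty gene per kilobase. Its values were 93.2, 83.55 and 90.6 CPM in Mock, 105.0, 113.9 and 101.5 in Auxin, then 76.25, 78.3 and 80.5 in Reintroduction. Auxin was highest and Reintroduction lowest, with no overlap. The change was 0.26 in Auxin against Mock (SE 0.061, adjusted p = 2.34e-03), -0.45 in Reintroduction against Auxin (SE 0.061, adjusted p = 1.1e-04) and -0.19 in Reintroduction against Mock (SE 0.061, adjusted p = 0.0184). The last call was lost under 5 of 17 alternatives: it became -0.06 with total counts and -0.07 with length and GC trends removed, and the adjusted p was 0.0525 without Reintroduction replicate 2.

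Spry4 (ENSMUSG00000024427.6; chr18:38586268-38601268, minus strand), another early ERK target, went the other way. Its libraries held 84.7, 79.3 and 78.8 CPM in Mock, 40.1, 44.9 and 40.4 in Auxin, then 62.0, 68.8 and 72.8 in Reintroduction. The 3 groups did not overlap. It fell by 0.95 on the log2 scale in Auxin against Mock (SE 0.071, adjusted p = 2.91e-07), rose by 0.70 after washout (SE 0.071, adjusted p = 1.2e-05) and remained 0.25 below Mock (log2 fold change -0.25, SE 0.070, adjusted p = 7.63e-03). That last difference was -0.12 with total counts and then did not pass (adjusted p = 0.111). N4bp3, Pno1 and Tmem79 had the most similar profiles (distances 0.0992 to 0.145, median over all genes 1.43); the last 2 share exon sequence with other genes.

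Within the Sprouty family the sum per kilobase was 63.5 ± 2.99 CPM per kb in Mock, 65.9 ± 3.95 in Auxin and 57.5 ± 1.97 in Reintroduction. The shares of the 3 genes shifted. Spry4 made up 27.8% ± 0.795 of it in Mock, 13.8% ± 0.276 in Auxin and 25.7% ± 1.2 in Reintroduction, while Spry1 went from 4.90% ± 0.217 to 8.47% ± 0.113 and 8.92% ± 0.702 (SD, n = 3). The ratio of Spry2 to Spry4 was 2.32 to 2.53 in the Mock libraries, 5.53 to 5.77 in Auxin and 2.43 to 2.70 in Reintroduction, where it overlapped with Mock. This ratio was taken without removing the trends of length and GC. With the length trend removed, Reintroduction against Mock was 0.003 for Spry2 and -0.363 for Spry4, further apart than in the main fit (-0.186 and -0.254). With both trends removed, the values were -0.067 and -0.255. Whether the ratio would then still overlap with Mock was not tested.

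**Figure D3:**
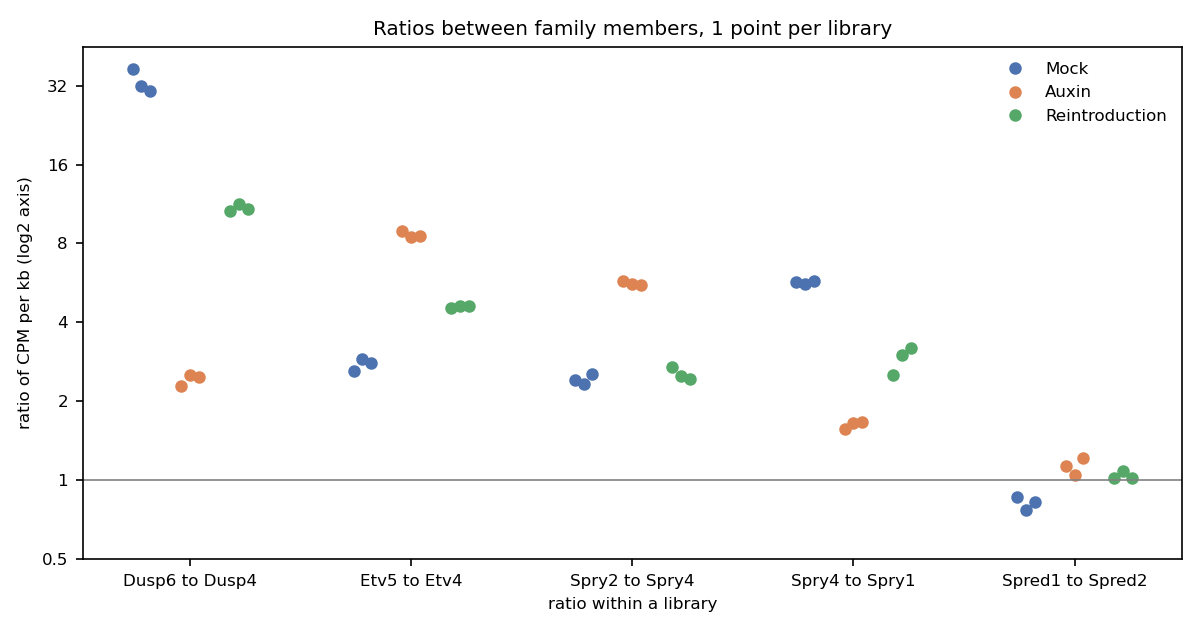
Ratios of CPM per kilobase between members of a family within each library (y axis, log2 scale; x axis, the pair), 1 point per library coloured by group. Dusp6 to Dusp4 spans 30.5 to 37.0 in Mock and 2.29 to 2.51 in Auxin, Etv5 to Etv4 moves the other way from 2.61 to 2.91 up to 8.49 to 8.89, and Spry2 to Spry4 in Reintroduction overlaps with Mock. No trend of length or GC was removed from these ratios.

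Spred1 (ENSMUSG00000027351.14; chr2:117121374-117182279, plus strand) and Spred2 (ENSMUSG00000045671.17; chr11:19924375-20024026, plus strand) encode the RAS inhibitors of the Sprouty-related family. Spred1 held 50.3, 51.3 and 51.9 CPM in Mock, 83.7, 70.4 and 83.8 in Auxin, then 74.0, 82.2 and 78.0 in Reintroduction. Mock lay below both other groups, and Auxin replicate 2 was the lowest of its group. The log2 fold change was 0.63 in Auxin against Mock (SE 0.072, adjusted p = 9.93e-06), 0.61 in Reintroduction against Mock (SE 0.072, adjusted p = 2.04e-05) and -0.02 in Reintroduction against Auxin (SE 0.072, adjusted p = 0.812; -0.16 and adjusted p = 0.0159 with length and GC trends removed). Spred1 is the longest member (6784 exon bases) and the lowest in GC (41.2%). The 418 genes of like length and GC had medians of 0.34 in Auxin against Mock and 0.48 in Reintroduction against Mock. With per-library trends of length and GC removed, its changes were 0.23 (adjusted p = 1.26e-03) and 0.07 (adjusted p = 0.242), so the second call was lost and the first change was smaller but kept its call.

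Spred2 held 39.8, 45.6 and 42.8 CPM in Mock, 50.6, 45.5 and 46.8 in Auxin, then 49.5, 51.8 and 52.2 in Reintroduction. Mock and Auxin overlapped. The change of 0.16 in Auxin against Mock (SE 0.064, adjusted p = 0.0455) lost its call under 11 of 17 alternatives, among them DESeq2 and leaving out Mock replicate 1, Mock replicate 3, Auxin replicate 1 or Auxin replicate 3. The change of 0.26 in Reintroduction against Mock (SE 0.064, adjusted p = 3.88e-03) held under all 17, and that after washout, 0.10 (SE 0.064, adjusted p = 0.203), passed under none. Summed, the Spred genes went from 16.8 ± 0.703 CPM per kb in Mock to 22.0 ± 1.60 in Auxin and 22.6 ± 0.874 in Reintroduction. Per kilobase Spred1 was below Spred2 in all 3 Mock libraries (ratio 0.767 to 0.860) and above it in all 3 Auxin libraries (1.05 to 1.22). These ratios were taken without removing the trends of length and GC; with both removed, the changes of the 2 genes in Auxin against Mock lay closer, at 0.23 for Spred1 and 0.11 for Spred2, and Spred2 was not called.

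Etv4 (ENSMUSG00000017724.14; chr11:101769742-101785371, minus strand) had the largest fall of the members. Its libraries held 119.7, 105.0 and 106.7 CPM in Mock, 28.95, 34.3 and 28.95 in Auxin, then 59.1, 61.2 and 60.4 in Reintroduction. No groups overlapped. The log2 fold change was -1.85 in Auxin against Mock (SE 0.078, adjusted p = 3.67e-09), 0.97 in Reintroduction against Auxin (SE 0.077, adjusted p = 1.79e-06) and -0.88 in Reintroduction against Mock (SE 0.076, adjusted p = 1.89e-06), and each call held under all 17 alternatives. The genes most like it were Nudc, Srm, which encodes spermidine synthase, and Ppa1, a cytosolic pyrophosphatase gene (distances 0.118 to 0.169, median over all genes 2.35). Nudc, for example, had 255.6, 68.4 and 138.4 CPM in Mock, Auxin and Reintroduction. Among the members Spry4 was nearest, at 1.13.

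Etv5 (ENSMUSG00000013089.15; chr16:22381309-22439719, minus strand), the close relative of Etv4, moved little. It held 413.4, 404.1 and 394.1 CPM in Mock, 340.4, 384.5 and 326.3 in Auxin, then 353.7, 372.5 and 369.4 in Reintroduction. Mock lay above the other groups, which overlapped. The change was -0.21 in Auxin against Mock (SE 0.064, adjusted p = 0.0132), 0.06 after washout (SE 0.064, adjusted p = 0.471) and -0.15 in Reintroduction against Mock (SE 0.064, adjusted p = 0.0637). The first call was lost without Auxin replicate 3 (-0.15, adjusted p = 0.0558) and with total counts (0.005); the third passed under 6 of 17 alternatives. As a pair the ETS genes summed to 134.0 ± 4.68, 95.3 ± 8.38 and 108.4 ± 2.80 CPM per kb in Mock, Auxin and Reintroduction. Etv4 contributed 26.5% ± 1.07 of that in Mock, 10.4% ± 0.239 in Auxin and 17.9% ± 0.166 in Reintroduction (SD, n = 3).

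The rest of the pathway was read from 5 lists of 66 genes, of which 65 were tested. Among 12 other FGF ligand and receptor genes, 2 were higher and 6 lower in Auxin against Mock (median log2 fold change -0.61), 0 and 3 in Reintroduction against Auxin (-0.08), and 2 and 7 in Reintroduction against Mock (-0.98). The shares called were 66.7%, 25% and 75%, beside 73.2%, 50.9% and 68.1% of all genes. Fgf17 fell from 18.8 ± 1.43 CPM in Mock to 4.25 ± 0.625 in Auxin (log2 fold change -2.14, SE 0.15, adjusted p = 1.56e-07) and was 3.51 ± 0.810 in Reintroduction. Fgf3 fell from 1.21 ± 0.0995 to 0.214 ± 0.0931 CPM, and Fgfrl1, an FGF receptor that lacks the kinase domain, rose by 1.55 on the log2 scale and fell by 0.53 after washout. Fgfr2 stood 1.06 below Mock in Reintroduction (log2 fold change -1.06) and shares exon sequence with another gene. The other gene that was higher in Auxin against Mock was Fgf5, and with Fgfrl1 it was Fgf5 and Fgfr4 that were lower after washout, both under 0.68 CPM on average in Auxin. Fgfr1 (0.20) and Fgfrl1 (1.02) were the 2 above Mock in Reintroduction, though Fgfr1, which shares exon sequence, was at -0.32 with the length trend removed. A filter of at least 1 CPM in 3 libraries left 4, 1 and 4 of these genes called in the 3 comparisons, in that order. That filter took low genes out of the test, among them Fgf5, Fgf8, Fgf15, Fgf18, Fgfr3, Fgfr4 and Klb. These counts are therefore not out of 12 genes tested. Without Auxin replicate 2, 5 were called in Reintroduction against Auxin, where calls over all genes rose from 10613 to 11581.

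Among 14 genes of adaptors, RAS and RAS regulators, 6 were higher and 4 lower in Auxin against Mock (median 0.12), 3 and 4 after washout (0.08), and 7 and 3 in Reintroduction against Mock (0.25). The shares called, 71.4%, 50% and 71.4%, lay near the 73.2%, 50.9% and 68.1% of all genes and are no result about the list. Gab2, a docking protein gene, rose from 0.174 ± 0.0540 CPM in Mock to 3.54 ± 0.0382 in Auxin and was 1.58 ± 0.368 in Reintroduction. Sos2, a RAS exchange factor gene, rose by 2.41 in Auxin against Mock and stood 1.95 above Mock after washout. Nf1, the gene of the neurofibromin that Spred proteins recruit, rose by 1.47 in Auxin against Mock (SE 0.13, adjusted p = 9.87e-07) and fell by 0.55 after washout. For Nf1, Auxin replicate 2 held 54.4 CPM, beside 80.3 and 76.3 in replicates 1 and 3. The 4 lower genes in Auxin against Mock were Grb2, Hras, Nras and Lztr1, with changes from -0.71 (Hras) to -0.13 (Nras). After washout Grb2, Hras and Rasa1 rose and Gab2, Sos2, Nras and Nf1 fell, and Hras, Nras and Lztr1 were the 3 below Mock in Reintroduction. The Nras call in Auxin against Mock was lost under 7 of 17 alternatives, among them leaving out Mock replicate 3, and the Hras call in Reintroduction against Mock under 6, among them leaving out Mock replicate 1 or Reintroduction replicate 2. Rasa1, a RAS-inactivating protein gene that shares exon sequence, stood 1.36 above Mock in Reintroduction. Its rise of 0.55 after washout was lost under 8 alternatives, among them leaving out Auxin replicate 1 or any Reintroduction library. Auxin replicate 2 held 32.4 CPM of Rasa1, beside 55.9 and 64.9 in replicates 1 and 3, and the Reintroduction libraries held 71.6 to 77.0.

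Among 14 RAF, MEK and ERK kinase and scaffold genes, 5 were higher and 8 lower in Auxin against Mock (median -0.16), 1 and 3 after washout (0.006), and 4 and 7 in Reintroduction against Mock (-0.14). Of this list 92.9%, 28.6% and 78.6% were called in the 3 comparisons, against 73.2%, 50.9% and 68.1% of all genes. The ribosomal S6 kinase genes Rps6ka3 and Rps6ka2 rose by 1.85 and 1.46 on the log2 scale in Auxin against Mock, and Braf rose by 1.28; Shoc2 and Araf were the other 2 that rose. For Braf, Auxin replicate 2 held 84.7 CPM, beside 129.1 and 143.4 in replicates 1 and 3. In the same libraries Rps6ka3 held 36.8, beside 52.8 and 56.9, and Shoc2 held 56.85, beside 77.9 and 79.8. Each of these values was above those of the Mock libraries. After washout Rps6ka2 fell by 0.82, Araf fell by 0.31, Mapk3 fell by 0.27 and Rps6ka1 rose by 0.44. In Reintroduction against Mock, Rps6ka3 was higher by 1.96, Braf by 1.25, Shoc2 by 1.04 and Rps6ka2 by 0.64, and Mapk3, which encodes ERK1, was lower (log2 fold change -1.11, SE 0.077, adjusted p = 4.01e-07). The exons of Braf, Araf, Shoc2 and Rps6ka1 overlap other genes. With length and GC trends removed, and likewise without Auxin replicate 2, 7 of the 14 were called after washout in place of 4. Calls over all genes rose as well, from 10613 to 11478 and 11581, respectively. Araf lost its call in Auxin against Mock when both trends were removed.

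Of 12 relatives of the members, Spry3 was not matched and 11 were tested. Here 6 were higher and 2 lower in Auxin against Mock (median 0.20), 5 and 4 after washout (0.04), and 7 and 4 in Reintroduction against Mock (0.57). The share called was at the background in the first comparison (72.7%, against 73.2% of all genes), and was 81.8% against 50.9% in the second and 100% against 68.1% in the last. Spred3 rose from 9.03 ± 0.733 CPM in Mock to 38.0 ± 1.02 in Auxin (log2 fold change 2.08, SE 0.071, adjusted p = 8.56e-10), and stood at 23.8 ± 1.11 in Reintroduction. Dusp14 fell from 8.996 ± 0.640 to 2.52 ± 0.50 CPM and returned to 7.23 ± 0.517, and Dusp8 rose from 0.152 ± 0.0829 to 1.44 ± 0.0573 CPM and fell to 0.381 ± 0.194. Dusp10 was the other gene that fell in Auxin against Mock (log2 fold change -1.001). After washout Dusp5, Dusp7, Dusp10, Dusp14 and Etv1 rose, by 0.35 (Dusp7) to 1.52 (Dusp14), and Dusp1, Dusp8, Dusp16 and Spred3 fell, Dusp1 with a log2 fold change of -0.80. Dusp1, Dusp2, Dusp10 and Dusp14 were below Mock in Reintroduction; the Dusp14 call was lost under 8 alternatives, among them leaving out Mock replicate 1 or 3 or Reintroduction replicate 1 or 2, and the Dusp1 call under 5, among them leaving out Reintroduction replicate 2. In the same comparison Dusp16 and Dusp5 stood 1.14 and 0.68 above Mock. Spred3 and Dusp8 share exon sequence with other genes.

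Among 14 other ERK output genes all were called in Auxin against Mock, 5 higher and 9 lower (median -0.46), 9 higher and 2 lower after washout (median 0.71), and 7 higher and 5 lower in Reintroduction against Mock (median 0.19). These are 100%, 78.6% and 85.7% of the list, beside 73.2%, 50.9% and 68.1% of all genes. Myc held 72.3, 66.0 and 63.2 CPM in the Mock libraries, 6.34, 7.18 and 7.10 in Auxin, then 24.6, 23.75 and 28.2 in Reintroduction. Ccnd1, the gene of cyclin D1, held 153.3, 164.0 and 159.4, then 19.7, 21.15 and 19.4, then 88.1, 91.2 and 91.9 CPM. Neither gene's groups overlapped, and their log2 fold changes in Auxin against Mock were -3.29 and -2.98 (SE 0.089 and 0.057), larger than that of any member that fell. Gbx2 fell by 2.65 in Auxin against Mock, where Fos, Phlda1, Epha4, Plaur and Lif rose, by 0.44 (Lif) to 1.02 (Fos). Epha4 and Fos were the 2 that fell after washout, Fos not without Reintroduction replicate 3, and Trib1 rose by 1.81 after washout. In Reintroduction against Mock, Phlda1 was higher by 2.49 and Plaur by 1.67, and Egr1, Myc, Gbx2, Ccnd1 and Epha2 were lower, with changes from -2.10 (Egr1) to -0.77 (Epha2). Egr1, the immediate early factor, held 2.53 to 2.64 CPM in Mock, 0.305 to 0.656 in Auxin and 0.464 to 0.735 in Reintroduction, and its change after washout did not pass the test (log2 fold change 0.21, adjusted p = 0.567). Ccnd1, Gbx2 and Phlda1 share exon sequence with other genes.

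**Figure D4:**
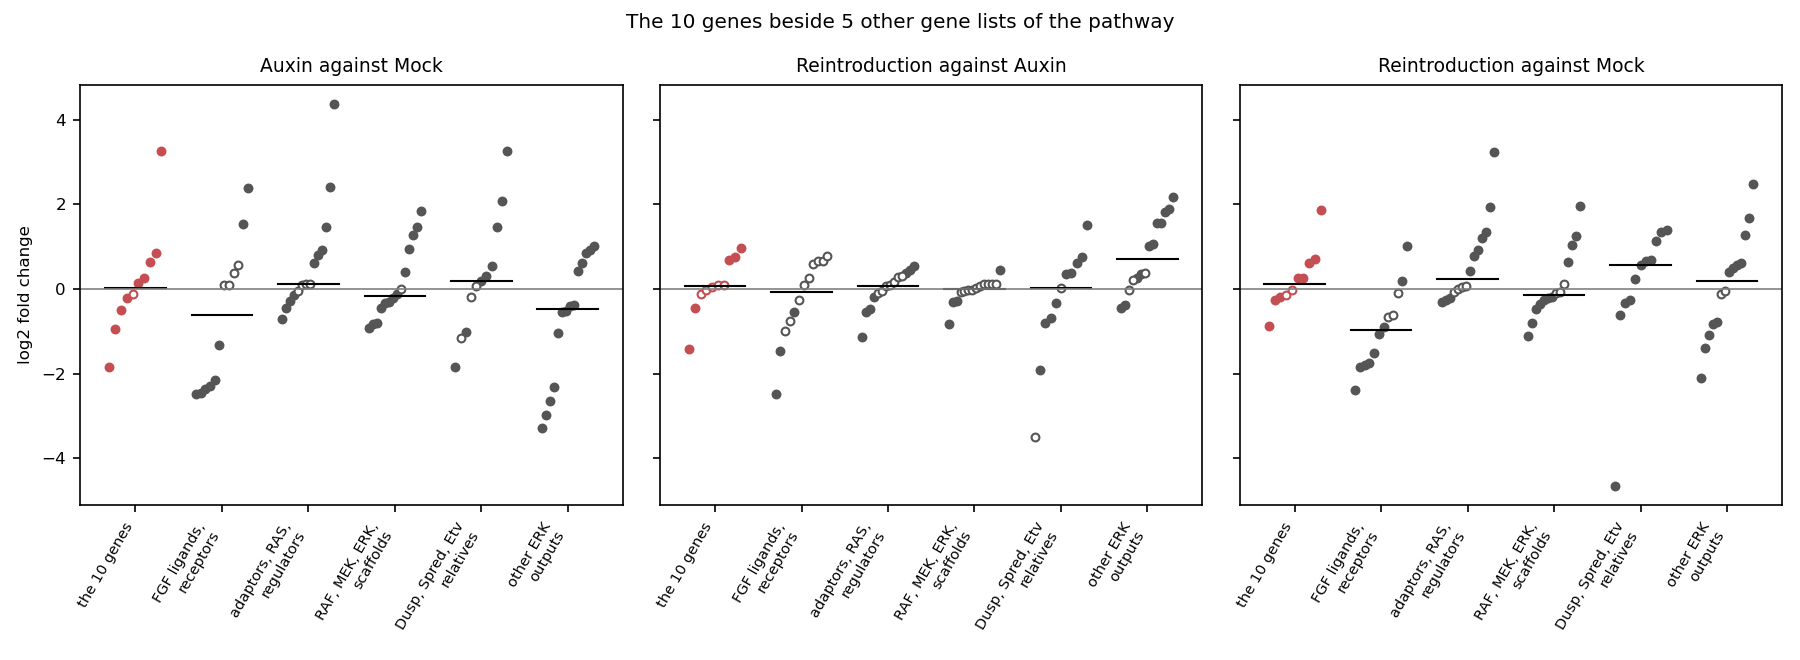
Log2 fold changes (y axis) of the 10 genes (red) and of the genes tested from the 5 lists (grey) in the 3 comparisons; filled points passed an adjusted p of 0.05, open points did not, and the black line is the median. The other ERK output genes have medians of -0.46, 0.71 and 0.19; the lowest relative in the last 2 panels is Dusp2, which held at most 1 count in a Reintroduction library, so that its fitted value is no measure of size.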

How the data were processed

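Polyadenylated RNA of 9 libraries was sequenced. The deposited tables hold raw counts. Per the file headers, featureCounts 2.0.6 counted reads over the exons of each gene in an mm10 annotation, with the paired-end flag, mates counted separately and no strand setting. The submitters' processing notes also list Trim Galore 0.6.10, FastQC 0.12.1, Bowtie2 2.5.3 and SAMtools 1.20 without roles. Bowtie2 does not split reads at exon junctions, and whether it made these alignments is not given in the sources used here.

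Symbols were matched on gene identifiers (48058 of 48440 genes). Exon sequence shared with another gene on either strand affects 9924 genes, whose counts are uncertain. All 9 libraries entered 1 edgeR 4.0.16 quasi-likelihood fit (R 4.3.3) with group as the only term, TMM scaling (factors 0.905 to 1.08) and filterByExpr, which kept 20838 genes. Tests were two-sided, with Benjamini-Hochberg adjustment over all genes tested and calls at adjusted p under 0.05. The SE was derived from the F statistic. P-values measure the spread between the libraries described as biological replicates.

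On simulated counts for the 20838 genes, with 200 changed 2-fold, the test recovered 70.5%, 70.5% and 75.5% of them for Auxin against Mock, Reintroduction against Auxin and Reintroduction against Mock. Of its calls 9.03%, 6% and 4.43% were false, in the same order. In the data, 73.2%, 50.9% and 68.1% of all genes were called in these comparisons. Recovery and the share of false calls with that many genes called was not tested.

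The text names all 10 members in each comparison. From each list it names at most 3 genes, those that changed most on the log2 scale among genes that were called, reached 1 CPM on average in the higher group and did not overlap; list genes in a count of at most 5 are named too. For Fgf4, Dusp6, Spry4 and Etv4 it names the 3 genes of most similar profile. One pathway gene is not reported here and enters no list value. The members and lists were chosen with earlier results of these data known. Alternatives were DESeq2 1.42.0 size factors, total counts, 2 other filters, DESeq2's Wald test, a fit restricted to the groups compared, halved counts, the replicate block, removal of length and GC trends per library, and leaving out each library.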

Additional observations from a re-analysis of the deposited data

How the results depend on the processing

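Over 17 alternatives per comparison, the number of members called stayed between 7 and 10 in Auxin against Mock (9 as reported), 5 and 8 in Reintroduction against Auxin (5) and 6 and 9 in Reintroduction against Mock (8). Leaving out single libraries gave 7 to 10, 5 to 7 and 7 to 9. Removing length and GC trends gave 8 in Reintroduction against Auxin, both without and with the replicate block, since Fgf4, Spred1 and Etv5 then passed. Calls over all genes were then 11478 and 11000, beside 10613 as reported. Counts over all genes stayed within 1.5 times.

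Among the members, signs changed only in log2 fold changes within 0.21 of 0. With total counts, Fgf4 was 0.090 and Etv5 0.005 in Auxin against Mock, Etv5 was -0.019 in Reintroduction against Auxin, and Fgf4 was 0.12 in Reintroduction against Mock. In that comparison Fgf4 was also 0.01 with a filter of 1 CPM, 0.028 with the length trend removed, 0.10 with length and GC trends removed (0.104 with the replicate block as well) and -0.061 to 0.005 with single libraries left out. Spry2 there was 0.003 with the length trend removed. Spred1 in Reintroduction against Auxin was -0.119 to 0.019 with single libraries left out. Among the pathway genes named, Nras was 0.083 in Auxin against Mock with total counts, and Fgfr1 in Reintroduction against Mock was -0.316 with the length trend removed, -0.104 with both trends removed and -0.105 with the replicate block as well. Total counts moved the median of all genes as printed with the first comparison; the cause of the other changes was not tested.

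The replicate number as a block gave 8, 5 and 8 members called in the 3 comparisons and 14808, 9829 and 13639 genes in all. Same-numbered libraries of different groups had correlations of their deviations from -0.674 to 0.489, and not each library correlated best with its own number. The numbers were therefore not used as pairs in the reported fit. With 3 libraries per group, such correlations cannot tell whether the numbers mark shared batches. The depth limits Dusp4 in Mock most, at 130 to 161 counts.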
